A study of Mus musculus with 113 samples.

Results

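The genes described here are 10 markers of mesoderm and endoderm: *T*, *Mixl1*, *Eomes*, *Mesp1*, *Kdr*, *Gata4*, *Gata6*, *Foxa2*, *Sox17* and *Cer1*. They were chosen by name, as genes of germ layers that a neural induction does not aim to make, and every table row with one of these symbols was taken, which gave 10 of the 23739 genes listed across 4 tables. Of these, 7 were listed among 13541 genes for SFEB populations, 7 among 13738 for adherent populations, all 10 among 23107 for E14 cells and 5 among 11449 for single cells. *T*, *Eomes* and *Foxa2* were the 3 genes listed in all 4 tables.

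During gastrulation, Nodal, Wnt and BMP signals induce the primitive streak, in which epiblast cells begin to express *T*, *Mixl1* and *Eomes*. Cells that leave the streak form mesoderm, where *Mesp1* and then *Kdr* appear, or definitive endoderm, which expresses *Foxa2*, *Sox17* and *Cer1*. Several of the genes also work elsewhere, *Gata4*, *Gata6* and *Sox17* in extraembryonic endoderm, *Foxa2* in the floor plate of the neural tube and *Eomes* in intermediate progenitors of cortical neurons.

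Mouse embryonic stem (ES) cells were differentiated towards neural cells and RNA was sequenced from cell populations and from single cells, with Nextera XT libraries. R1 ES cells were grown either as floating serum-free aggregates in GKSR medium (SFEB) or as an adherent monolayer in N2B27 medium on gelatin, and in both protocols they were moved on the sixth day to dishes coated with PDL, laminin and fibronectin. SFEB gave 22 populations, 14 in a first series from 0 to 142 h and 8 in a parallel series from 0 to 216 h, and 8 single cells at each of the 8 times of the parallel series. Adherent cultures gave 15 populations from 0 to 216 h, and unmodified (WT) and Fyn-KO E14 ES cells gave 3 libraries each at day 0 and at day 4.

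For the tests, populations were gathered into 4 windows of time. In SFEB these held 7 samples from 0 to 22 h, 5 from 34 to 60 h, 6 from 68 to 106 h and 4 from 126 to 216 h, and in adherent culture 4, 3, 4 and 4. Each time point of a series is 1 library, so the spread within a window includes change over time. All R1 samples came from cells without a stated genetic change, and the Fyn-KO cells are 1 clone of E14 carrying a CRISPR deletion, so the clone and the loss of *Fyn* cannot be told apart. The protocol used for the E14 cells was not given in the sources used here. Nothing shows that the 3 libraries of an E14 group came from separate cultures, so p-values measure only the spread between these samples, which may be technical.

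On the NCBIM37 build, the streak genes *T*, *Mixl1* and *Eomes* lie at chr17:8627288-8635361, chr1:182623174-182627165 and chr9:118387330-118395250. The mesoderm genes *Mesp1* and *Kdr* lie at chr7:86937127-86938674 and chr5:76328852-76374483. *Gata4* and *Gata6* lie at chr14:63817759-63890529 and chr18:11052508-11085633, and the endoderm genes *Foxa2*, *Sox17* and *Cer1* at chr2:147868613-147872705, chr1:4481009-4486494 and chr4:82527655-82531052.

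The labelled cell types were checked with marker genes. The summed FPKM (fragments per kilobase of transcript, scaled to the reads mapped) of 10 genes of naive pluripotency was 1339 at 0 h in the first SFEB series and 155 at 216 h in the parallel series, while the sum of 9 listed neural genes was 89.3 and 1610.5 in the same samples. In adherent culture the pluripotency sum was 1584 at 0 h and 171 at 216 h and the neural sum 176 and 1229.9. In E14 cells the pluripotency sum lay between 1738 and 2282 in the 6 libraries of day 0 and between 439 and 944 in the 6 of day 4. The E14 neural sum was between 13.9 and 53.4 at day 0, and at day 4 it was 233, 49.7 and 80.8 in WT and 35.9, 49.2 and 53.2 in Fyn-KO. Of the 10 pluripotency genes, 8 fell and 0 rose between the first windows of SFEB, 7 and 0 in adherent culture, 8 and 0 between the days in E14 WT and 7 and 0 in Fyn-KO. Over all genes 37.6%, 10.6%, 25.8% and 19.3% were called in these comparisons. Among neural genes tested, 2 of 9 rose in SFEB, 2 of 9 in adherent culture, 4 of 6 in E14 WT and 2 of 6 in Fyn-KO, and 0 fell.

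Several libraries stood apart from their neighbours. The first SFEB series read higher than the parallel series at the shared time of 0 h for each of the 7 members listed, by 2.00 for *Foxa2*, 1.61 for *T* and 0.229 for *Eomes* on the FPKM scale after batch correction, so values near 0 are not comparable between the series. In adherent culture, 97 of 13738 genes differed at least 4-fold on FPKM + 1 between 140.5 and 144 h, against 9 between 125.5 and 140.5 h and 85 between 144 and 216 h. Earlier steps of that series had up to 308, between 41.5 and 53.5 h, and 141 between 20.5 and 35.5 h. Among E14 libraries, the third of Fyn-KO day 0 had a streak gene sum of 5.06 FPKM where the other two had 134 and 139.6, and the first of WT day 4 had an endoderm gene sum of 158 where the other two had 468 and 857. Where the call of a member changes without 1 of these E14 libraries, both values are given. They were singled out by genes of the same germ layers as the members, so a call gained without them supports nothing. With another library left out, the adjusted p of *Gata4* in limma reached 0.242 between the days in WT and 0.530 between the genotypes at day 4. That of *Gata6* between the days in WT reached 0.416, and that of *T* between the days in Fyn-KO 0.266.

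*T* (Brachyury), the transcription factor that marks the primitive streak and nascent mesoderm, reached the highest population level of the members in SFEB. It lay between 0.518 and 2.56 FPKM from 0 to 22 h, with a median of 2.39. From 34 to 60 h it was 2.31, -0.160, 2.40, 2.89 and 1.69 at 34, 38, 42.5, 54.5 and 60 h, the value below 0 being a product of batch correction. From 68 to 106 h it reached a lowest, median and highest value of 2.81, 7.69 and 27.6. The 3 high values were those of 84, 103 and 106 h, at 12.7, 11.4 and 27.6 FPKM, and both series contributed to them. Of the 6 samples, 4 lay above the highest sample of 34 to 60 h and the rest overlapped with it. *T* rose by 1.70 on the log2(FPKM + 1) scale between these windows (SE 0.49, limma, Benjamini-Hochberg adjusted p = 0.0110). From 126 to 216 h it was 4.19, 3.33, 19.7 and 4.53 FPKM at 126, 142, 144 and 216 h, so that 144 h of the parallel series alone stayed in the upper range. The difference from the window before was -0.24 (SE 0.52, adjusted p = 0.739 in limma). Within the first series the difference of 68 to 106 h from 34 to 60 h was 0.64 (adjusted p = 0.141) and within the parallel series, with 2 samples a window, 3.59 (adjusted p = 0.259), so neither series alone passed the threshold in limma.

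*Mixl1*, a homeobox gene of the streak, was above 1 FPKM in 4 of the 22 SFEB populations, those of 60, 84, 103 and 106 h. It lay between 0.131 and 0.590 FPKM from 0 to 22 h, with a median of 0.365. It was 0.999, 0.433, 0.661, 0.892 and 1.21 at 34, 38, 42.5, 54.5 and 60 h, and between 0.675 and 4.04, with a median of 1.92, from 68 to 106 h. The samples of 84, 103 and 106 h, at 4.04, 2.98 and 3.501, were again the high ones, while those of 68, 80 and 92 h stayed inside the range of the window before. From 126 to 216 h *Mixl1* was 0.294, 0.139, 0.0938 and 0.0766 FPKM, below each of the 6 samples of 68 to 106 h.

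*Mixl1* rose by 0.63 from 34 to 60 h to 68 to 106 h (SE 0.24, adjusted p = 0.0470 in limma) and then fell by 1.299 (SE 0.26, adjusted p = 0.000374). It passed the filter of 1 FPKM in 3 samples only through 68 to 106 h, the window where it was high, and with no filter the adjusted p was 0.0469 and 0.000362 in limma, in a table whose genes all reach 1 FPKM in some sample. The rise lay at the threshold. Its adjusted p was 0.112 after quantile normalization, 0.0882 with a pseudocount of 0.1, and between 0.0640 and 0.125 with any of the samples of 34, 38, 42.5, 54.5, 84, 103 or 106 h left out. Within the parallel series the rise was 1.42 (adjusted p = 0.276 in limma) and the later fall -2.13 (adjusted p = 0.0112), and in the first series *Mixl1* was below the filter on low values. For 34 to 60 h against 0 to 22 h the difference of 0.43 had an adjusted p of 0.150 in limma, and of 0.0333 after quantile normalization, where it was 0.63.

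*Eomes*, a T-box factor of the streak and of definitive endoderm, did not pass the threshold between any neighbouring windows of SFEB. It lay between 1.08 and 2.26 FPKM from 0 to 22 h with a median of 1.36. It was 1.73, 2.16, 3.08, 2.33 and 4.32 at 34, 38, 42.5, 54.5 and 60 h, and from 68 to 106 h it lay between 1.25 and 8.34 with a median of 3.25. The highest samples were those of 84 and 103 h, at 8.34 and 6.27, and each window overlapped with the next. From 126 to 216 h *Eomes* was 2.67, 5.64, 2.104 and 3.37, the highest of these being that of the first series at 142 h. The differences between successive windows were 0.55, 0.25 and -0.02 (SE 0.29, 0.30 and 0.32, adjusted p = 0.149, 0.558 and 0.975 in limma), and the first was 0.81 with an adjusted p of 0.0339 after quantile normalization. Of 4 genes tested of intermediate progenitors of neurons, where *Eomes* is also used, 3 rose from 68 to 106 h to 126 to 216 h. In this comparison 44.8% of all genes were called and 8 of 9 neural genes rose, so the count is no result about the group. The summed level of these progenitor genes was 41.1, 70.2, 45.0 and 97.2 FPKM at 126, 142, 144 and 216 h. Their part in the late level of *Eomes* was not tested.

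*Kdr*, the VEGF receptor of blood and endothelial precursors, stayed low in SFEB. Its median was 0.488 FPKM from 0 to 22 h, between 0.208 and 1.16. It was 0.0985, 0.152, 0.289, 0.516 and 0.394 at 34, 38, 42.5, 54.5 and 60 h, and its median was 0.581 from 68 to 106 h, between 0.4927 and 1.91. It was 0.249, 0.416, 2.33 and 0.207 at 126, 142, 144 and 216 h. The samples of 103, 106 and 144 h, at 1.91, 1.44 and 2.33 FPKM, were the high ones, and the windows overlapped. The difference of 68 to 106 h from 34 to 60 h was 0.54 (SE 0.23, adjusted p = 0.0757 in limma), and with a pseudocount of 0.1 it was 1.34 (adjusted p = 0.0381). *Kdr* was above 1 FPKM only at 8, 103, 106 and 144 h and passed the filter through these. The difference of 126 to 216 h from the window before was -0.18 (adjusted p = 0.5676), and -0.53 without the sample of 144 h (adjusted p = 0.0378, limma). *Mesp1*, a factor of early and cardiac mesoderm, is not listed in the SFEB or adherent tables.

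*Gata6*, a zinc finger factor of primitive endoderm and cardiac mesoderm, was lower in SFEB from 34 to 60 h than at the start. It was between 0.733 and 1.51 FPKM from 0 to 22 h, with a median of 1.41, and 0.599, 0.211, 0.294, 0.49296 and 0.154 at 34, 38, 42.5, 54.5 and 60 h. No sample of the second window reached the lowest of the first. *Gata6* fell by 0.70 (SE 0.20, adjusted p = 0.00939 in limma), and in the first series alone by 0.70 (adjusted p = 0.00297). It was above 1 FPKM only at 0, 1, 2 and 8 h of the first series and at 106 h, so it passed the filter through the window from which it fell, and with no filter the adjusted p was 0.00927 in limma. From 68 to 106 h it lay between 0.238 and 2.48 with a median of 0.437, the sample of 106 h being the highest of all 22, and from 126 to 216 h it was 0.161, 0.159, 0.740 and 0.332. The later differences were 0.29 and -0.31 (adjusted p = 0.291 and 0.273 in limma).

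Genes of fibroblasts were also lower from 34 to 60 h than at the start of SFEB. Of 11 such genes tested, 10 fell between the first windows, with a median of -2.53 against -0.03 over all genes tested. Their summed level was 1362 and 1389 FPKM at 0 h in the first and parallel series, 162 at 22 h and between 52.0 and 162 from 34 h on, and their most abundant gene, the collagen *Col1a1*, was 316 FPKM at 0 h and 15.9 at 34 h. The methods of the study describe 1 passage without a feeder layer ahead of induction. Of 12 endoderm genes tested 5 fell and 0 rose (median -0.55), a share near the 37.6% of all genes called in this comparison, and among them were matrix genes that other cells also make: *Col4a1* fell by 2.02, *Col4a2* fell by 2.45 and *Sparc* fell by 1.94. Of 3 trophoblast genes tested 1 fell and 0 rose, likewise near that share. At 22 h of the first series, with the fibroblast sum at 162, *Gata6* was still 0.988 FPKM. In adherent culture 6 of 11 fibroblast genes fell between the first windows (median -1.47), where 10.6% of all genes were called. *Gata6* differed there by -0.03 (adjusted p = 0.959 in limma). The part of fibroblasts in the level of *Gata6* was not tested. In bulk samples, fewer cells of a type and less RNA per cell cannot be told apart. *Gata4*, the other GATA factor of this group, did not pass the filter of 1 FPKM in 3 samples. It lay between 0.187 and 1.05 FPKM in the 22 populations, with its highest values at 0 h of the first series and 106 h of the parallel series.

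*Foxa2*, a forkhead factor of endoderm, node and floor plate, was the listed member with the highest level at 216 h of SFEB, in 1 library. *Eomes* and *T* were above it at 142 h, at 5.64 and 3.33 FPKM, and *T* at 144 h, at 19.7. From 0 to 22 h *Foxa2* lay between 1.44 and 2.01 FPKM in the first series and at -0.464 and -0.562 in the parallel series. It was 1.70, 2.00 and 1.89 at 34, 42.5 and 54.5 h in the first series and -0.233 and 0.0178 at 38 and 60 h in the parallel series. From 68 to 106 h its lowest, median and highest values were 1.77, 3.13 and 10.3. All but the sample of 80 h stood above the earlier windows, those of 68 and 92 h slightly, at 2.31 and 2.28, and those of 84, 103 and 106 h further, at 3.96, 5.11 and 10.3. From 126 to 216 h *Foxa2* was 3.32, 2.64, 14.1 and 18.2 FPKM at 126, 142, 144 and 216 h, the last a time that only the parallel series covered.

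*Foxa2* rose by 1.31 between 34 to 60 h and 68 to 106 h (SE 0.46, adjusted p = 0.0346 in limma), with 5 of 6 samples above the highest of the window before. Its adjusted p was 0.0589 after quantile normalization and 0.109, 0.0951, 0.0699 and 0.0890 without the sample of 38, 60, 103 or 106 h. The rise was 0.36 within the first series (adjusted p = 0.246, limma) and 2.89 within the parallel series (adjusted p = 0.173). The difference of 126 to 216 h from the window before was 0.82 (SE 0.49, adjusted p = 0.184 in limma). Of 5 floor plate genes tested, 4 rose from 68 to 106 h to 126 to 216 h with a median of 1.97. In this comparison 44.8% of all genes were called, and 8 of 9 neural genes rose too, with a median of 1.57. The floor plate genes that rose included the guidance factor *Ntn1*, by 2.18, and the homeobox gene *Nkx6-1*, by 1.84. The summed level of the floor plate list was 54.0, 51.8, 73.9 and 283 FPKM at 126, 142, 144 and 216 h, and *Ntn1*, the most abundant, reached 144. In the first series the sum was 47.4, 54.0 and 51.8 at 103, 126 and 142 h, while *Foxa2* fell from 5.11 to 3.32 and 2.64. *Shh* and *Nkx2-2* are not listed in the SFEB table, and the part of floor plate cells in the level of *Foxa2* was not tested.

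Over the members tested in SFEB, 1 of 6 was called between 34 to 60 h and 0 to 22 h, when 37.6% of 13363 genes were. Between 68 to 106 h and 34 to 60 h 3 of 6 were called, against 32.8% of all genes, and between 126 to 216 h and 68 to 106 h 1 of 6, against 44.8%. Counts this close to the background are no result about the members as a group, and the calls of *Gata6* and *Mixl1* among them are of genes that passed the filter through a window compared.

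**Figure D1:**
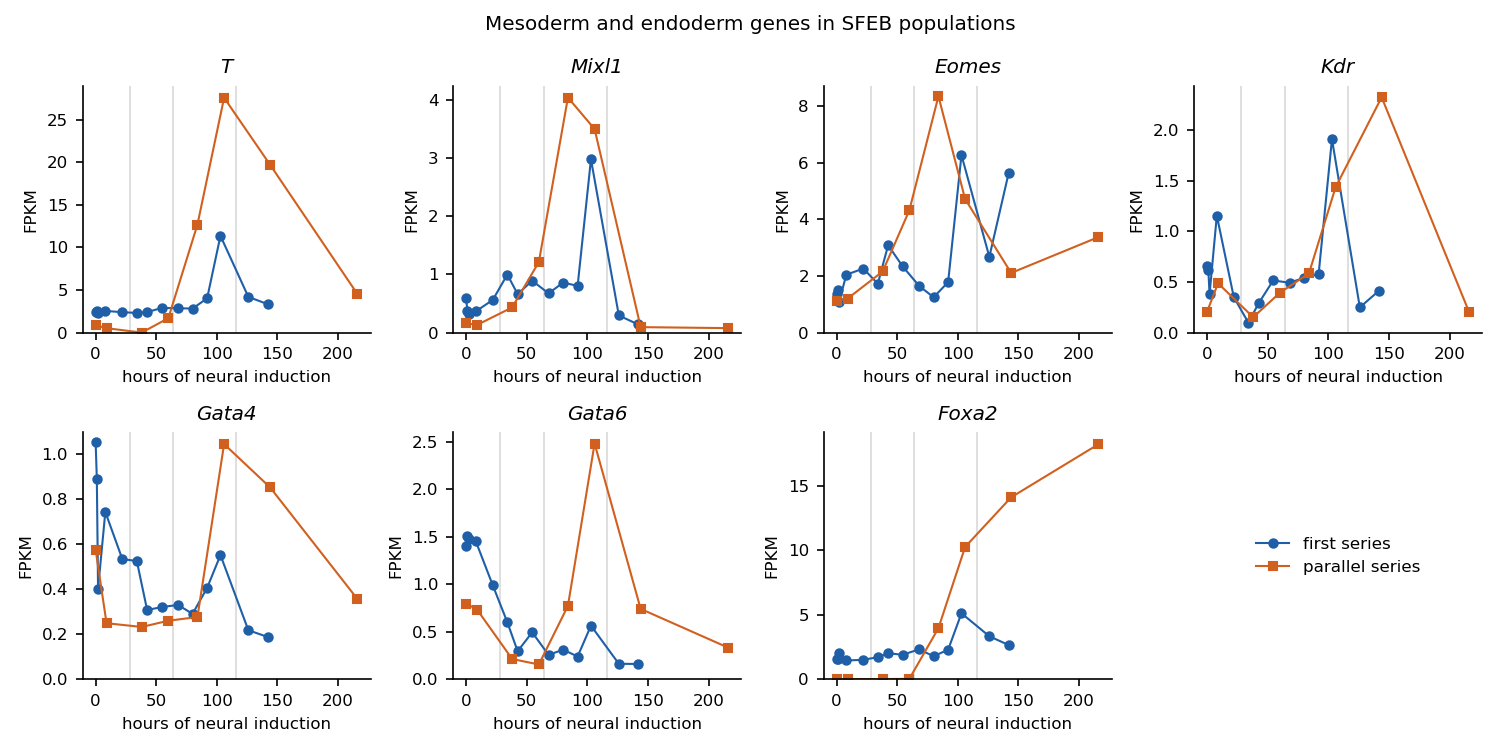
FPKM after batch correction (vertical axes) against hours of neural induction (horizontal axes) for the 7 members listed in the SFEB population table, values below 0 drawn at 0, with circles for the first series, squares for the parallel series and grey lines between the 4 windows. *T*, *Mixl1* and *Eomes* peak between 84 and 106 h in the parallel series and have a high sample at 103 h in the first, while *Foxa2* is highest at 216 h.

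Other genes of the streak were called in both directions in SFEB. Over all genes, 37.6%, 32.8% and 44.8% were called in the successive comparisons, and the count of a list near these shares is no result about it. Of 9 tested, 3 rose and 2 fell between the first windows (median -0.10), 6 rose and 1 fell between 34 to 60 h and 68 to 106 h (median 0.91, against 0.06 over all genes), and 2 rose and 3 fell afterwards (median -0.59). The ligand *Wnt8a*, the most abundant of the list at up to 70.4 FPKM, rose by 1.59 and then by 1.80 and fell by 3.54, and *Fgf8* rose by 1.82 and 1.38 and fell by 2.54. Of the others, *Snai1* fell by 1.68 and *Mesp2* by 0.40 between the first windows, and *Lhx1* and *Evx1* rose by 1.76 and 0.85 in the last comparison. *Sp5*, a target of Wnt signalling, was 0.394 FPKM at 60 h, 4.72 at 84 h and 5.93 at 106 h in the parallel series, and rose by 1.27 into that window. Of 12 inducers of germ layers, which are *Fgf4* and genes of the Nodal and BMP pathways, 2 rose and 3 fell in each of the first pair of comparisons (medians 0.01 and -0.31), and 1 rose and 7 fell in the last (median -1.69), including the Nodal coreceptor *Tdgf1* by 2.49 and the Nodal inhibitor *Lefty1* by 3.36. Of 15 genes of mesoderm derivatives, 3 rose and 8 fell, then 1 rose and 3 fell, then 3 rose and 3 fell (medians -0.76, 0.06 and 0.02), and the cardiac actin *Actc1* rose by 1.26 into 68 to 106 h and fell by 1.53 afterwards. The endoderm list gave 5 rises and 0 falls of 12 into 68 to 106 h and 2 rises and 2 falls after it.

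Some genes followed the course of single members closely. By Pearson's r of log2(FPKM + 1) over the 22 populations, the genes nearest to *T* among 13362 were *Dkk1* (0.90), *Aplnr* (0.89) and *Dgkk* (0.85), and r with *Dkk1* was 0.91 over the 14 samples of the first series and 0.92 over the 8 of the parallel series. The nearest to *Mixl1* were *Wnt8a* (0.79), *Fgf8* (0.77) and *Il17rd* (0.76), with 0.65 and 0.93 within the series for *Wnt8a*. The nearest to *Eomes* were *Wnt3* (0.79), *Tnfrsf19* (0.78) and *Axin2* (0.77), with 0.64 and 0.95 within the series for *Wnt3*. The nearest to *Kdr* were *Krt8* (0.83), *Aplnr* (0.79) and *Dkk1* (0.76), and r with *Krt8* was 0.73 and 0.91 within the series. *Kdr* and *T* thus shared a pair of neighbours over the 22 populations. For *Kdr* that pair was looser in the first series, at 0.66 with *Aplnr* and 0.49 with *Dkk1*, than in the parallel series, at 0.88 and 0.91. The nearest to *Gata6* were *Zc3hav1* (0.88), *Acbd4* (0.87) and *Flt1* (0.86), a gene of endothelium, with 0.93 and 0.81 within the series for *Zc3hav1*. The nearest to *Foxa2* were *Nkx6-1* (0.87) and *Cnksr2* (0.86), with 0.75 and 0.90 within the series for *Nkx6-1*. Between members, r ran in the first series from -0.51 for *Gata6* and *Foxa2* to 0.91 for *T* and *Foxa2*, and in the parallel series, where these pairs had 0.39 and 0.84, from 0.14 for *Eomes* and *Kdr* to 0.85 for *Mixl1* and *Eomes*. Of the 5 pairs with *Gata6*, 4 had a value below 0 in the first series and above 0 in the parallel series. These points share libraries and follow time, and the values describe them without a test.

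In adherent culture *Gata4*, *Gata6*, *Sox17* and *Foxa2* were highest in the last window. *Gata4* was 0.421, 0.275, 0.351 and 0.343 FPKM at 0, 2.5, 8.5 and 20.5 h, and 0.471, 0.872 and 0.797 at 35.5, 41.5 and 53.5 h. It was 1.64, 1.64, 1.26 and 1.42 at 68.5, 80.5, 92.5 and 101.5 h, and 2.96, 4.66, 11.9 and 11.1 at 125.5, 140.5, 144 and 216 h. Each window thus lay wholly above the one before. The first differences of 0.34 and 0.54 did not pass the threshold (adjusted p = 0.517 and 0.171 in limma), and into 126 to 216 h *Gata4* rose by 1.63 (SE 0.29, adjusted p = 0.00250). Without the samples of 144 and 216 h, a setting added after the data were seen, it rose by 0.93 (adjusted p = 0.00821, limma), and no other member passed the filter on low values in that setting.

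At the same times *Gata6* was 0.360, 0.576, 0.538 and 0.551 FPKM, then 0.265, 0.549 and 0.629, then 0.376, 0.740, 0.378 and 0.486, and in the last window 1.65, 2.23, 7.24 and 3.92. It rose by 1.54 into the last window (SE 0.26, adjusted p = 0.00195 in limma), with 4 of 4 samples above every earlier one. *Sox17*, a factor of definitive and extraembryonic endoderm, was 0.133, 0.0825, 0.112 and 0.0471, then 0.0445, 0.0781 and 0.170, then 0.0761, 0.303, 0.193 and 0.200, and in the last window 0.967, 1.95, 10.9 and 5.42. The last window again lay above all others, and *Sox17* rose by 1.95 (SE 0.38, adjusted p = 0.00416). *Foxa2* was 0.134, 0.0154, 0.0830 and 0.0824, then 0.0639, 0.239 and 0.138, then 0.242, 0.299, 0.157 and 0.205, and in the last window 0.832, 1.11, 13.6 and 8.17. It rose by 1.96 (SE 0.485, adjusted p = 0.0138), without overlap. In these genes the samples of 125.5 and 140.5 h already lay above each earlier one, and those of 144 and 216 h were higher still. *Sox17* and *Foxa2* passed the filter only through 140.5, 144 and 216 h, so they could enter the test only by being high in that window, and *Gata6* passed only through the 4 samples of that window.

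*T* and *Cer1* were high in adherent culture only at 144 and 216 h. *T* lay between 0.109 and 0.845 FPKM in the 13 earlier samples, 140.5 h included, and was 22.7 and 11.2 at 144 and 216 h. *Cer1*, a secreted inhibitor of Nodal and BMP made by anterior endoderm, lay between 0 and 0.334 and was then 4.27 and 2.52. With 2 samples above 1 FPKM neither entered the test. *Eomes* lay between 0.366 and 1.08 in all 15 samples with no period of high expression, and was not tested either. *Mixl1* and *Kdr* are not listed in the adherent table.

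Of the 4 members tested in adherent culture, 0 were called between 34 to 60 h and 0 to 22 h, when limma called 10.6% of 12879 genes and 3385 had an unadjusted p under 0.05. Likewise 0 of 4 were called between 68 to 106 h and 34 to 60 h, against 39.9% and 6424 genes, and 4 of 4 rose between 126 to 216 h and 68 to 106 h, against 20% called. Since 3 of these 4 passed the filter only through the window where they were high, the last count supports nothing. The first comparison called 1366 genes in all, and 625, 754, 876 or 2157 without the sample of 2.5, 8.5, 41.5 or 53.5 h. The second called 5139, and 2758, 3116 or 3415 without that of 35.5, 41.5 or 92.5 h. The last called 2572, and 993, 1152 or 1070 without that of 68.5, 80.5 or 216 h.

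The summed level of the endoderm list was also higher at 144 and 216 h than at 140.5 h. Of 20 endoderm genes listed, 16 were tested. Among these, 13 rose into 126 to 216 h and 0 fell, with a median of 1.401 against 0.06 over all genes. In this comparison 20% of all genes were called, and a gene could pass the filter through its high values in this window alone. The count thus supports nothing about the list. The basement membrane collagens *Col4a1* and *Col4a2* rose by 2.78 and 2.73, and *Ttr*, the thyroid hormone carrier of visceral endoderm and liver, rose by 2.61. *Ttr* was 0.817, 1.98, 32.6 and 9.76 FPKM at 125.5, 140.5, 144 and 216 h. The summed level of the list was 425 FPKM at 140.5 h, 1183 at 144 h and 1089 at 216 h, its most abundant gene being *Sparc* with up to 382. Earlier, 0 of 16 rose and 1 fell between the first windows (median 0.01) and 3 rose and 0 fell between the next (median 0.41).

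Other lists also changed between 140.5 and 144 h in adherent culture. The fibroblast list summed to 135, 478 and 95.5 FPKM at 140.5, 144 and 216 h, with the smooth muscle actin *Acta2* at 22.1, 203.5 and 13.1, and the list of mesoderm derivatives to 15.6, 81.3 and 28.04. The fibroblast sum had been 948 at 0 h, with *Acta2*, the most abundant, at 366. The trophoblast list, with 3 genes listed, summed to 1.305, 11.2 and 4.51, with 0 of 2 tested called in limma. The floor plate gene *Shh* was 0, 11.9 and 4.28 FPKM at these times, beside 1.11, 13.6 and 8.17 for *Foxa2*. Between 126 to 216 h and 68 to 106 h, 3 of 4 floor plate genes tested rose and 0 fell (median 1.11), 5 of 9 neural genes rose and 0 fell (median 0.94), 3 of 10 genes of mesoderm derivatives rose and 1 fell (median 0.22), and of 11 fibroblast genes 0 rose and 1 fell (median -0.15). Of 6 streak genes 3 rose and 1 fell (median 0.62), while *Wnt8a* fell by 2.21. These counts stand beside 20% of all genes called. Genes of these lists could likewise pass the filter through the window where they were high. Their part in the levels of the members was not tested.

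**Figure D2:**
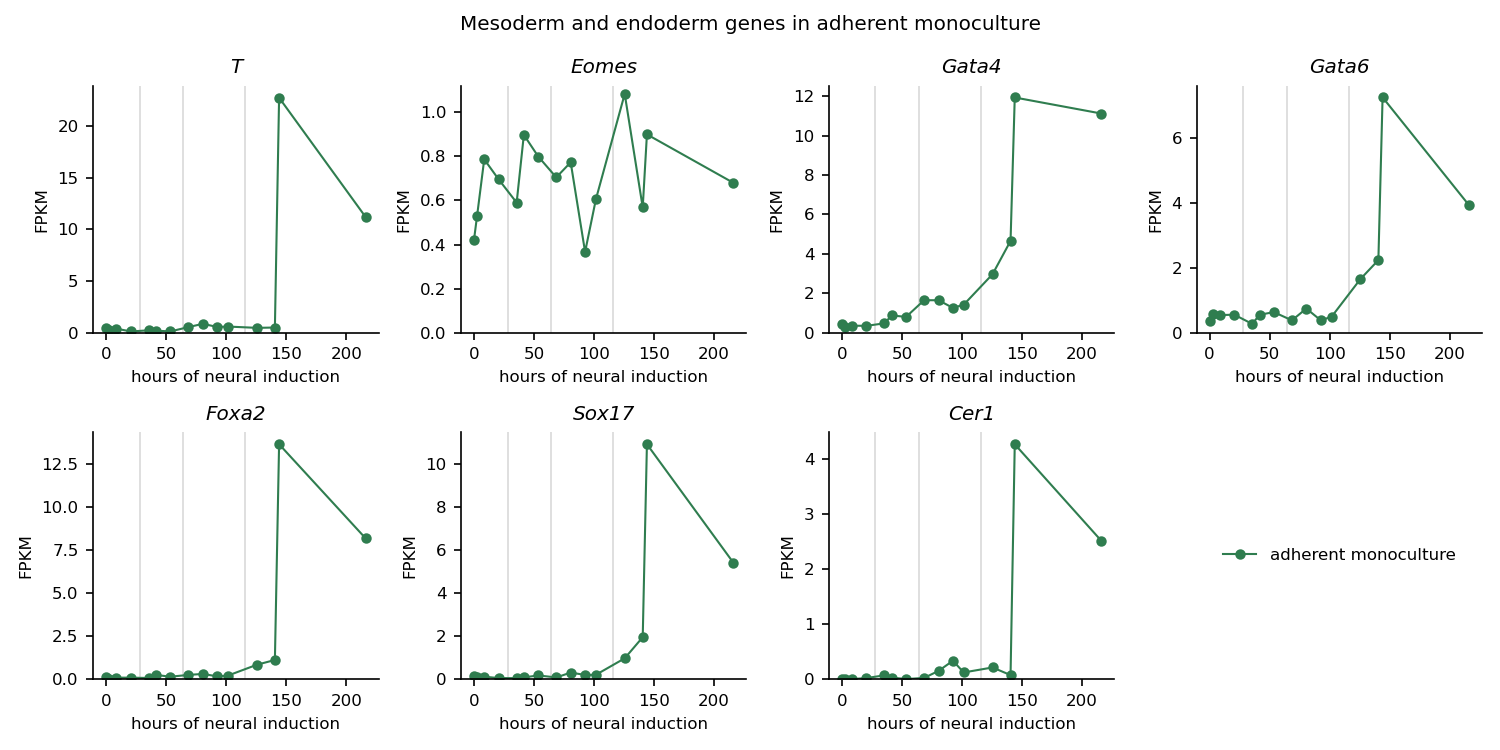
FPKM (vertical axes) against hours of neural induction (horizontal axes) for the 7 members listed in the adherent table, 1 point for each of 15 samples, with grey lines between the 4 windows. *T* and *Cer1* are high only at 144 and 216 h, *Gata4* increases from window to window, and *Eomes* stays at or below 1.08 FPKM on an axis of its own.

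In E14 cells the targeted gene was looked at first. *Fyn*, a kinase of the Src family, was 3.21, 2.74 and 4.00 FPKM in WT and 0.598, 0.598 and 1.10 in Fyn-KO at day 0, and 9.44, 4.54 and 6.76 in WT and 1.19, 1.13 and 1.58 in Fyn-KO at day 4. The Fyn-KO libraries lay below the WT libraries on both days without overlap.

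The endoderm members were high in some WT libraries of day 4. *Gata4* was 0.585, 1.55 and 1.32 FPKM in WT at day 0 and 0.961, 9.78 and 12.5 at day 4. It was 0.288, 0.494 and 1.09 in Fyn-KO at day 0 and 0.373, 0.136 and 2.30 at day 4. *Gata4* was thus high in the second and the third WT library of day 4, the first lying inside the day 0 range. The difference of WT day 4 from day 0 was 1.64 (SE 0.63, adjusted p = 0.0752 in limma). Libraries with the same number deviated together in this comparison, and with the number as a block the adjusted p was 0.0290. Without the first WT library of day 4 it was 2.52 (adjusted p = 0.00386, limma). In Fyn-KO the difference between the days was 0.12 (adjusted p = 0.914). At day 4 Fyn-KO differed from WT by -1.93 (SE 0.63, adjusted p = 0.244 in limma), and by -2.81 without the first WT library of day 4 (adjusted p = 0.0468), the groups overlapping through that library.

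*Gata6* had the same libraries high. It was 0.391, 2.49 and 0.453 FPKM in WT at day 0 and 0.712, 6.09 and 9.42 at day 4. In Fyn-KO it was 0.0487, 0.0176 and 0.921 at day 0 and 0.192, 0.0484 and 2.73 at day 4, the third library being the highest on each day. The difference of WT day 4 from day 0 was 1.39 (SE 0.67, adjusted p = 0.149 in limma), and 2.16 without the first WT library of day 4 (adjusted p = 0.0265). *Gata6* was above 1 FPKM in 4 libraries and would not have passed the filter without the high ones of WT day 4. The difference of Fyn-KO from WT at day 4 was -1.59 (SE 0.67, adjusted p = 0.374), and -2.36 without that library (adjusted p = 0.212).

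*Sox17* was 0.144, 0.277 and 0.107 FPKM in WT at day 0 and 0.210, 4.76 and 4.98 at day 4, and in Fyn-KO 0, 0.0540 and 0.191 at day 0 and 0.0140, 0.0495 and 0.711 at day 4. The second and the third WT library of day 4 were again the high ones, and with 2 samples above 1 FPKM the gene was not tested. *Foxa2* was 0.124, 0 and 0 in WT at day 0 and 1.20, 1.70 and 3.11 at day 4. It was 0.154, 0.0559 and 0.0683 in Fyn-KO at day 0 and 0.543, 0.486 and 0.669 at day 4. The 3 WT libraries of day 4 lay above all other libraries, and the 3 of Fyn-KO day 4 above all of day 0.

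*Foxa2* rose in WT between the days by 1.48 (SE 0.24, adjusted p = 0.00167 in limma) in 3 of 3 libraries. It passed the filter only through the 3 WT libraries of day 4, so it could be tested only because it was high there. In Fyn-KO the difference was 0.52 (SE 0.24, adjusted p = 0.143), and Fyn-KO differed from WT at day 4 by -0.89 (SE 0.24, adjusted p = 0.165 in limma). The difference between the genotypes in the change over time was itself tested, as -0.96 for *Foxa2* (SE 0.33) and -1.53 for *Gata4* (SE 0.89), with an adjusted p of 0.997 for both in limma. The change in WT is therefore not shown to differ from that in Fyn-KO. *Cer1* was 1.05 and 0.130 FPKM in the first and the third WT library of day 4 and 0 in the other 10 libraries.

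*T* and *Eomes* had their highest values in ES cells of day 0. *T* was 5.70, 1.08 and 0.405 FPKM in WT and 16.05, 9.45 and 0.0715 in Fyn-KO at day 0, and between 0 and 0.273 in the 6 libraries of day 4. The first pair of Fyn-KO libraries had the highest values and the third the lowest of day 0. The difference of Fyn-KO day 4 from day 0 was -2.28 (SE 0.84, adjusted p = 0.0785 in limma), and -3.49 without the third Fyn-KO library of day 0 (adjusted p = 0.000959). *T* was above 1 FPKM in 4 libraries, all of day 0, so it could be tested only because it was high on the day from which it fell, and with no filter the adjusted p over all libraries was 0.130 in limma. In WT, where the days did not overlap, the difference was -1.33 (SE 0.84, adjusted p = 0.268), and the genotypes differed at day 0 by 1.10 (SE 0.84, adjusted p = 0.588, limma), and by 2.31 without the third Fyn-KO library (adjusted p = 0.0888). *Eomes* was 6.30, 0.543 and 0.917 in WT and 4.61, 1.26 and 0.770 in Fyn-KO at day 0, and between 0.413 and 1.90 at day 4, with its highest value in the first library of each genotype at day 0. None of its comparisons passed the threshold in limma, the lowest adjusted p being 0.375, and 0.218 with 1 library left out. *Mixl1* lay between 0.0397 and 0.530 in the 12 libraries and *Mesp1* between 0 and 0.357. *Kdr* was 0.448, 0.801 and 0.441 in WT at day 0 and 0.0621, 0.0604 and 0.0456 at day 4, without overlap, and in Fyn-KO 0.0364, 0.661 and 0.437 at day 0 and 0.131, 0.0815 and 0.0307 at day 4, with overlap through the first library of day 0. None of these 3 genes reached 1 FPKM in any library, and they were not tested.

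Of the 5 members tested in E14 cells, 1 was called between WT day 4 and day 0, against 25.8% of 12257 genes. With the library number as a block, *Gata4* was called there as well. For Fyn-KO day 4 against day 0, 0 of 5 were called, against 19.3%, and limma gave 4263 genes an unadjusted p under 0.05. Between Fyn-KO and WT 0 of 5 were called at day 4, against 0.0734% of all genes, and 0 of 5 at day 0, against 0.171%, with 1483 and 1785 genes at an unadjusted p under 0.05 in limma. For the difference of the changes, 0 of 5 members and 0% of all genes were called, 537 having an unadjusted p under 0.05 in limma. These counts over all genes moved with single libraries. The 3166 genes of WT were 1831 or 1991 without the second or the third WT library of day 0, and the 2370 of Fyn-KO were 1281, 1041 or 1150 without the first or the second library of day 0 or the third of day 4. The 9 of day 4 were 14 without the third WT library and 5 without the first Fyn-KO library. The 21 of day 0 were 128, 4 or 8 without the first, the second or the third WT library and 7 or 10 without the first or the second Fyn-KO library. The 0 of the difference of changes were 4 without the first WT library of day 0 and 1 without the third of day 4.

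Endoderm genes moved with *Gata4*, *Gata6* and *Sox17* across the E14 libraries. Their summed level at day 4 was 158, 468 and 857 FPKM in WT and 60.9, 58.0 and 211 in Fyn-KO. Of 21 listed, 13 were tested. A gene could pass the filter through the WT libraries of day 4 where it was high, so counts and medians over the 13 support nothing about the list. In WT 6 of 13 rose and 0 fell between the days (median 2.57), against 25.8% of all genes called. The collagen *Col4a1* rose by 4.22, *Cubn*, the cubilin receptor of visceral endoderm, by 3.87 and *Col4a2* by 3.56. In Fyn-KO 1 of 13 rose, *Lamb1* by 2.34, and 0 fell (median 0.34), against 19.3% of all genes called. For the difference between the genotypes in the change over time, 0 of 13 were called in limma (median -1.98). At day 4 the median difference of Fyn-KO from WT was -1.72, against -0.03 over all genes tested, with 0 of 13 called in limma. *Cubn* was 1.90, 32.8 and 35.4 FPKM in the WT libraries of day 4 and 0.871, 0.288 and 6.63 in the Fyn-KO libraries. The summed level of neural genes was highest in the first WT library of day 4, the one low in endoderm genes. The part of these shifts between libraries in the difference between genotypes was not tested.

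Streak genes differed between the E14 libraries of day 0, and the third library of each genotype was the lowest both in *T* and in their sum, while the first pair did not keep the order of *T*. The sum of 14 such genes was 58.0, 74.7 and 28.4 FPKM in WT and 134, 139.6 and 5.06 in Fyn-KO at day 0, and between 5.18 and 8.94 at day 4. *Cdx1*, the most abundant, was 34.3, 39.5 and 17.2 FPKM in WT and 76.1, 64.1 and 0.745 in Fyn-KO at day 0, and *Sp5* was 17.3, 23.8 and 4.44 and 49.9, 66.8 and 0.255. Of 6 tested, 1 rose and 3 fell in WT between the days and 1 rose and 2 fell in Fyn-KO. Over all genes 25.8% were called in WT and 19.3% in Fyn-KO. *Cdx1* fell by 4.75 in WT and fell by 4.28 in Fyn-KO. The fibroblast sum was between 1.96 and 7.60 FPKM at day 0 and between 16.2 and 43.3 at day 4, *Mmp2* being the most abundant at up to 22.2. The part of these genes in the level of *T* was not tested.

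**Figure D3:**
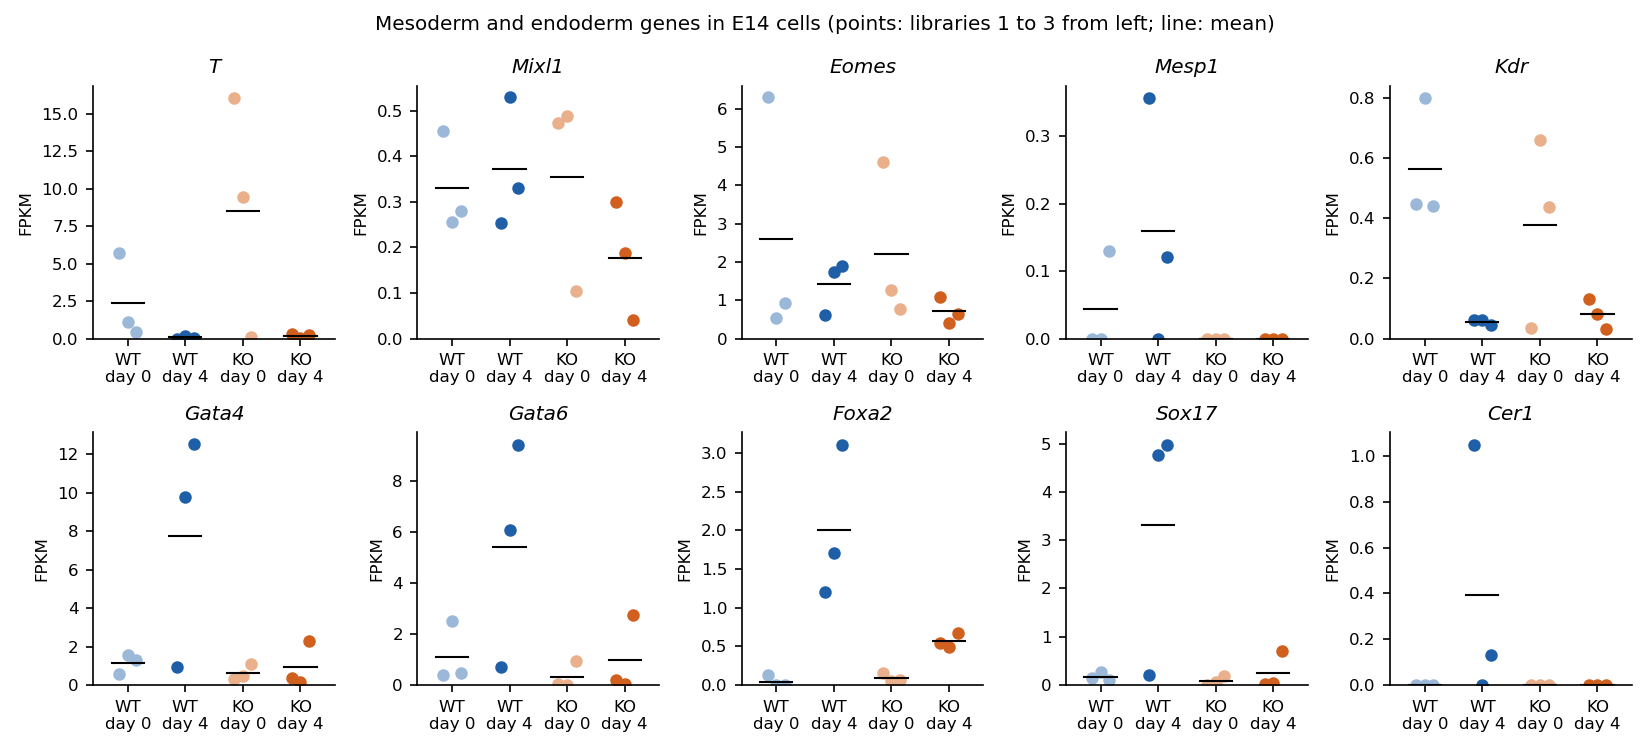
FPKM (vertical axes) of the 10 members in the 12 E14 libraries by group (horizontal axes), 1 point for each library with libraries 1 to 3 from left to right, and a line at the mean of each group. *Gata4*, *Gata6* and *Sox17* are high in the second and the third WT library of day 4, *Foxa2* is highest in the 3 WT libraries of day 4, and *T* is highest in the first pair of Fyn-KO libraries of day 0.

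In the table of single SFEB cells the values are RPKM (reads per kilobase, scaled to the reads mapped) after quantile normalization between cells, a gene was counted as detected above 0.5 RPKM, and no test was made, since each time gave 1 sample of 8 cells. Of 64 cells, *T* was detected in 9, *Eomes* in 9, *Foxa2* in 14, *Mixl1* in 2 and *Mesp1* in 2, and at least 1 member in 25. The median gene of the table was detected in 24 cells. Any value above 0 was found in 32 cells for *T*, 31 for *Eomes*, 23 for *Foxa2*, 8 for *Mixl1* and 2 for *Mesp1*, and in 50 for the median gene, so the counts depend on the cut. Before 216 h no member was detected in more than 3 of the 8 cells of a time, and at 216 h *Foxa2* was detected in 7. *Kdr*, *Gata4*, *Gata6*, *Sox17* and *Cer1* are not listed in the single-cell table. The study describes its 11449 genes as above 0.5 RPKM in at least 8 samples, which over the 64 cells 2008 of them do not meet, *Mixl1* and *Mesp1* among them.

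*T* reached 960 RPKM in cell 06 of 84 h and was 4.50 in cell 08 of that time. Its other detected values were 19.8 in a cell of 0 h, 4.19 and 2.76 at 38 h, 4.97, 1.86 and 1.60 at 106 h and 22.9 at 144 h. The mean of 121 RPKM at 84 h thus rests on 1 cell, and the median cell lay below 0.5 RPKM at each time. Cell 06 also had *Mixl1* at 5.86 and *Foxa2* at 70.9 RPKM. In the same cell 3 of 8 listed streak genes were above 0.5 RPKM, *Fgf8*, *Wnt8a* and *Sp5*, at 72.5, 8.36 and 10.9. Of 10 listed genes of mesoderm derivatives 3 were, the blood and heart genes *Lmo2*, *Etv2* and *Actc1*, at 25.0, 2.40 and 518. The Nodal target *Lefty1* was 6739. The mesoderm derivatives summed to 546 in cell 06 and to 484 in cell 05 of 60 h, which had 0 members detected. The germ layer inducers summed to 6823 in cell 06, 6252 in cell 09 of 38 h and 5273 in cell 10 of 60 h. At least 1 streak gene was above 0.5 RPKM in each of the 8 cells of 84 h, and only 1 in cells 03, 04 and 05. The sum of streak genes, 91.8 in cell 06, was exceeded in cells 01, 02, 04 and 08, at 95.6, 434, 260 and 115.

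*Mixl1* was otherwise detected in cell 02 of 84 h, at 4.15 RPKM, where *Eomes* was 12.1 and *Wnt8a* 430. *Eomes* was detected in 1 cell of 38 h at 13.01, in 2 of 60 h at 28.3 and 3.64, in 1 of 84 h, in 3 of 106 h at 5.49, 1.33 and 3.05 and in 2 of 144 h at 2.38 and 23.8 RPKM. It was thus spread over the middle times, and was detected in 0 cells of 0, 9 or 216 h. Among all 64 cells, 8 had at least 2 members above 0.5 RPKM, of which 2 were of 84 h, 3 of 106 h, 2 of 144 h and 1 of 216 h.

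*Foxa2* was the member above 0.5 RPKM in the most cells, and mostly low before 216 h. It was 1.92 RPKM in 1 cell of 9 h, 70.9 in the cell of 84 h above, 0.678, 0.578 and 0.725 in 3 cells of 106 h and 4.54 and 2.69 in 2 of 144 h. At 216 h it was 9.76, 52.5, 5.76, 358, 16.5, 2.44 and 1.47 in 7 cells and 0 in the eighth. Floor plate genes were also high at 216 h: *Ntn1* was 148, 83.5, 17.5, 42.5, 109, 22.9 and 0.159 RPKM in the same 7 cells and 0.0545 in the eighth, and *Shh* was above 0.5 in 5 of them, at 31.3, 10.7, 0.602, 6.39 and 4.26. The summed level of 6 floor plate genes had a median of 114 RPKM at 216 h and 2.78 at 144 h. In the earlier cells with *Foxa2* detected, the sum was 4.24 at 9 h, 0.0629 at 84 h, 0.307, 40.8 and 0.171 at 106 h and 0.408 and 0.482 at 144 h, while cell 08 of 144 h had 143 with *Foxa2* at 0. Before 216 h most cells with *Foxa2* were thus low in floor plate genes. *Mesp1* was detected in cells 06 and 16 of 216 h at 1.06 and 4.56 RPKM, the first being the cell with the highest *Foxa2* and the second the cell without it. Cell 16 had a summed level of pluripotency genes of 701 RPKM, against 4.99 to 52.1 in the other 7 cells of 216 h.

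**Figure D4:**
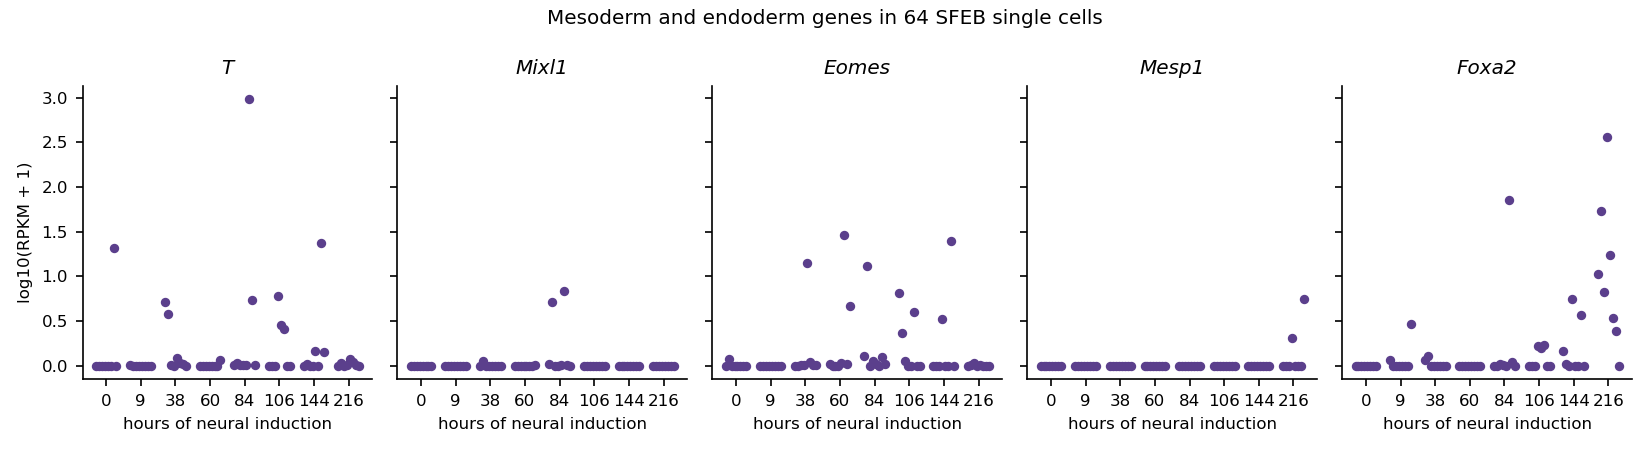
Deposited log10(RPKM + 1) (vertical axes) of the 5 members listed in the single-cell table for 64 SFEB cells, 8 at each time (horizontal axes, hours of neural induction). 1 cell of 84 h stands out for *T* and *Foxa2*, and *Foxa2* is above 0 in 7 of 8 cells of 216 h.

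Promoters were read for the members because *T*, *Mixl1* and *Foxa2* had high samples at 84, 103 and 106 h in SFEB, and *T*, *Foxa2* and *Cer1* at 144 and 216 h in adherent culture. RefSeq windows of 300 bases around gene starts on GRCm38.p6 matched 6 of the 10 members, and *Mixl1*, *Gata4*, *Gata6* and *Sox17* had no entry. Motifs were searched on both strands, as CTTTGA for TCF/LEF factors of Wnt signalling, AGGTGT for T-box factors, AGATAA for GATA factors and TGTTTNC for forkhead factors, and were chosen from general knowledge after the promoters had been seen. Of 32851 promoters 16.003%, 13.7%, 11.2% and 20.5% hold at least 1 match. The promoter of *T* (chr17:8434173-8434472, plus strand) held 1 TCF/LEF and 1 T-box match, that of *Cer1* (chr4:82885102-82885401, minus strand) 2 forkhead matches, and 1 of the 3 of *Foxa2* (chr2:148045415-148045714, minus strand) 1 TCF/LEF and 1 GATA match, with 0 in the other two. *Mesp1* had 2 TCF/LEF and 2 T-box matches, *Kdr* 1 forkhead match and *Eomes* 0. Shown 5′ to 3′ with the matches in capitals are the promoters of *T* and *Foxa2*, the members that rose in SFEB and have an entry, and of *Cer1*. A match is a run of letters and no evidence of binding.
T: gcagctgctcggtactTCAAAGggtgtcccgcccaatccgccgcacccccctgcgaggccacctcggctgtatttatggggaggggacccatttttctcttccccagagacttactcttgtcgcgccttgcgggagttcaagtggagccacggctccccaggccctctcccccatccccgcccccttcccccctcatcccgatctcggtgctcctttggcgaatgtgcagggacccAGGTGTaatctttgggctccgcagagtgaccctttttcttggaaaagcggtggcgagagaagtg
Foxa2: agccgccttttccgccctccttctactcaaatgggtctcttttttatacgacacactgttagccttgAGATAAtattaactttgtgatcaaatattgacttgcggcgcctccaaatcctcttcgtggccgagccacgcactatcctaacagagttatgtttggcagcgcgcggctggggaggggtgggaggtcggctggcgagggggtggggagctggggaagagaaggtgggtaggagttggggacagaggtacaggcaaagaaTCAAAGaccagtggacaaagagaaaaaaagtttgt
Cer1: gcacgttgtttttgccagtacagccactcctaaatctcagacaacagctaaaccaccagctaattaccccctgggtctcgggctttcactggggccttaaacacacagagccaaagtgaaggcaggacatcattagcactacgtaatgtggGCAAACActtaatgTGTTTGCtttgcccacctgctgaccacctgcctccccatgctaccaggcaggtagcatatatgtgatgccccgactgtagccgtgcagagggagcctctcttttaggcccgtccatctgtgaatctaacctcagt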

How the data were processed

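Processed values of 22 SFEB populations, 15 adherent populations, 12 E14 libraries and 64 single cells were used. The authors mapped reads with TopHat and computed levels with Cufflinks. The submitters' processing notes name TopHat2 2.0.8b and Cufflinks 2.1.1, with mm9 for R1 and mm10 for E14 samples, and the methods of the study name other versions of both. For adherent and E14 populations the authors deposited FPKM, with no batch correction stated. The SFEB population values were deposited by the authors as a batch-corrected score, FPKM after ComBat, with 1256 values below 0, of which 4 belong to the members. They were treated as FPKM, as planned. Single cells were deposited as log10 values, log10(RPKM + 1) after quantile normalization by the authors. The study states a minimum of reads for the libraries of single cells and of the populations sampled with them, but the read depth of each sample is unknown from the files, so no counting intervals are given.

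Values below 0 were set to 0 and log2(FPKM + 1) was fitted in limma 3.58.1 (R 4.3.3), after dropping genes that did not reach 1 FPKM in 3 or more samples of their table. Each table had 1 model of its 4 groups, with trended empirical Bayes variance, two-sided moderated tests and Benjamini-Hochberg adjustment over all genes tested, at 0.05. The procedure was tested on simulated data. Fold changes on this scale understate changes of low genes. Tables were normalized separately, so no test was made between them. Tables and figures used Python 3.11.15, pandas 2.3.3, numpy 2.4.6 and matplotlib 3.10.9. Gene positions were taken from an annotation of NCBIM37 and promoters from RefSeq.

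Members and lists were chosen with earlier results of these data known. The 10 lists cover streak and early mesoderm, germ layer inducers (*Fgf4* and the Nodal and BMP pathways), mesoderm derivatives, endoderm, trophoblast, floor plate, intermediate progenitors of neurons, neural genes, naive pluripotency and fibroblasts, 127 genes in all. Named were all members, up to 3 genes of a list with the largest rise and fall past the threshold in a comparison, the highest gene of each list and the 3 genes most like each member over the SFEB populations. Some of these genes are not reported here. Values of *Shh*, *Sp5*, *Cdx1*, *Lmo2*, *Etv2*, *Actc1*, *Lefty1*, *Cubn*, *Ttr*, *Ntn1*, *Fgf8* and *Wnt8a* in single samples or cells were chosen after they had been seen.

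E14 groups share the numbers 1 to 3. Deviations of libraries with the same number from their group means correlated above 0.1 for each pair in WT day 4 against day 0 (r = 0.199, 0.220 and 0.224) and in Fyn-KO against WT at day 4 (r = 0.136, 0.258 and 0.240), but not for each pair in the other comparisons.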

Additional observations from a re-analysis of the deposited data

Results flagged for a closer look

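Of 49 groups of 4 to 10 samples of a member, 7 had a sample far from the others, by the gap of the highest or lowest sample to its nearest neighbour as a share of the group's range. The shares were taken on log2(FPKM + 1) with values below 0 set to 0, as *T* was at 38 h. They differ from shares of the FPKM values printed above. Chance gives this in about 1 in 20 groups of like samples. The samples here follow time, and SFEB windows mix the first and the parallel series, which were offset from each other at 0 h. The flagged SFEB samples were all of the parallel series, so the number flagged cannot be set against that rate. For *T* in SFEB the share was 0.729 for the low sample of 38 h among 34 to 60 h and 0.844 for the high sample of 144 h among 126 to 216 h. For *Kdr* it was 0.843 at the same 144 h, and for *Gata6* 0.653 for the high sample of 106 h among 68 to 106 h. In adherent culture it was 0.831 for *T* at 80.5 h, high among 68 to 106 h, 0.833 for *Gata6* at 0 h, low among 0 to 22 h, and 1 for *Cer1* at 20.5 h, where 0.0190 FPKM stood beside 3 values of 0.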

How the results depend on the processing

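The 55 comparisons of members, of which 10 were called in the main fit, were repeated in 684 alternative fits. Of these, 655 gave the same call, 19 lost a call and 10 gained one, and none turned a call round. Most of the same calls are thus comparisons that stayed uncalled, and the lost calls were 10 of *Mixl1*, 7 of *Foxa2* and 2 of *T*, all in SFEB 68 to 106 h against 34 to 60 h. A fit in which a gene fell below the filter is not among the 684, so no call could be lost there. With 1 sample left out, *Foxa2* and *Sox17* had 5 fits in adherent 126 to 216 h, where *Gata4* had 8. Between the days in E14 WT, *Foxa2* had 3 fits and *Gata4* 6. A change of sign with no call in either fit, in 42 cases, was counted as the same. Settings with 1 series alone and without the adherent samples of 144 and 216 h were chosen after seeing the data.

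Counts of genes called that moved over 1.5 times were 3087 for SFEB 126 to 216 h against 68 to 106 h in the first series, 466, 1 and 798 for the 3 SFEB comparisons in the parallel series, and 317 for adherent 126 to 216 h without 144 and 216 h. For E14 they were 24 (Fyn-KO against WT day 4), 35 (day 0) and 1 (difference of changes) with no filter, 17 at day 4 with quantile normalization, and 38 at day 0 and 2 for the difference of changes with a replicate block. The cause was not tested. The replicate block gave 3563, 2779 and 10 in the other E14 comparisons and, where numbers do not pair libraries, an adjusted p of 0.0454 in limma for *T* between Fyn-KO day 4 and day 0. Apart from this and *Gata4* in WT it changed no call of a member. Libraries of the same number correlated at r = 0.0239, 0.0899 and 0.00112 in that comparison and at 0.0628, 0.339 and -0.115 in Fyn-KO against WT day 0, and in neither did every library correlate best with its own number. Single cells with any member numbered 50 with any value above 0, against 25.

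With 1 sample left out, counts ranged from 4137 to 5384, 3321 to 4630 and 4560 to 6226 in SFEB, 625 to 2157, 2758 to 6295 and 993 to 3334 in adherent culture, and in E14 from 1831 to 2841 (WT), 1041 to 3063 (Fyn-KO), 5 to 14 (day 4), 4 to 128 (day 0) and 0 to 4 (difference of changes). Quantile normalization moved the share of rises among calls from 40.6% to 55.5%, 64.1% to 50.4% and 61.6% to 46.7% in SFEB. In adherent culture the share moved from 36.0% to 62.9%, 66.5% to 45.5% and 74.8% to 55.4%. Between the days in E14 it moved from 60.1% to 50.7% in WT and from 60.9% to 51.0% in Fyn-KO. For Fyn-KO against WT day 0, with 21 calls in the main fit, it moved from 23.8% to 35%. The median of all genes shifted by -0.15 in adherent 68 to 106 h against 34 to 60 h. The read depth of each sample, which limits low values, is not in the files used here.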
